A study of Mus musculus with 4 samples.

Results

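Messenger RNA levels of DNA repair and checkpoint genes were compared between livers given siRNA against Orm1 and livers given control siRNA. The set held 49 genes chosen by name for their function, and a gene was measured where the deposited table had a probe set with that gene as its only symbol. This gave 45 members from 68 probe sets, out of 10923 genes measured in all. Bard1, Fancd2, Lig4 and Neil1 were not analysed here.

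All mice were male C57BL6/J animals aged 6 to 13 weeks. Each got a single dose of siRNA in a lipid carrier that targets liver, 40% of the liver was removed 3 days later, and RNA was taken 48 hours after this partial hepatectomy. The siOrm group, with siRNA against Orm1, had 2 arrays, and the siControl group, with control siRNA, had 2 arrays. All the groups were operated on, so there is no unoperated liver for comparison. The titles of the siOrm arrays can be read as replicate numbers or as the genes Orm1 and Orm2, while source and description put both in 1 group. Whether each array holds RNA of a single animal or of several pooled is not said in the labels, so p-values reflect the spread of these arrays alone, which could be technical.

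Cells keep separate repair systems for different kinds of damage. Base excision repair replaces damaged bases, nucleotide excision repair cuts out bulky lesions, and mismatch repair corrects copying errors. Double-strand breaks are rejoined by end joining or copied from the sister chromatid by homologous recombination, and the Fanconi anaemia proteins deal with crosslinks. The kinases ATM and ATR detect breaks and stalled forks and hold the cell cycle through CHK2 and CHK1. After partial hepatectomy hepatocytes leave quiescence and copy their DNA, and many genes of recombination, mismatch repair and the replication checkpoint are transcribed most in S phase.

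Values are log2 signals, with base 2 assumed, set relative to the 4-array median of each probe set, and a gene's value is the mean of its probe sets. Differences are siOrm minus siControl on this log2 scale, so a negative one means lower in siOrm. Being centred, the table shows no absolute level, and neither the levels of 2 genes nor the presence of a liver marker can be compared. In bulk tissue, fewer cells of a type and less RNA per cell cannot be told apart.

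The targeted gene differed little. Orm1 stood at -0.24 and -0.02 in the siOrm arrays, against 0.02 and 0.19 in the siControl arrays, a difference of -0.23 (SE 0.15; limma, adjusted p = 0.994). Its close relatives Orm2 and Orm3 differed by -1.08 (SE 0.34) and -0.91 (SE 0.34), and neither passed (limma, adjusted p = 0.994). Without siControl replicate 1, which leaves a lone control array, Orm3 differed by -1.43, and without siControl replicate 2 by -0.39. The target gene thus gives only a weak check of the group labels. The arrays were not equally alike: over the members, the standard deviation of array-to-array differences was 0.157 within siOrm and 0.338 within siControl, and it ran from 0.163 to 0.290 between groups. The siControl pair thus differed more for these genes than any array pair across the groups. Over all genes this was not so: the value was 0.384 within siControl and 0.428 between siOrm replicate 1 and siControl replicate 2.

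No repair or checkpoint gene passed the test. Of the 45 members, 0 had an adjusted p under 0.05 over all genes (limma), against 0% of all 10923 genes, and the adjusted p of the members ran from 0.994 to 0.999. At an unadjusted p under 0.05 there was 1 member, Msh6, against 4.76% of all genes. Differences ran from -0.57 for Msh6 to 0.21 for Msh3, and 35 members lay within 0.2 of 0. The 95% interval spanned 0 for 44 members. For 43 members it lay inside 1 either way, which is a doubling or halving, and for 25 it lay inside 0.5. The exceptions to the wider limit were Msh6 and Chek1, whose intervals reached -1.05 and -1.29.

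**Figure D1:**
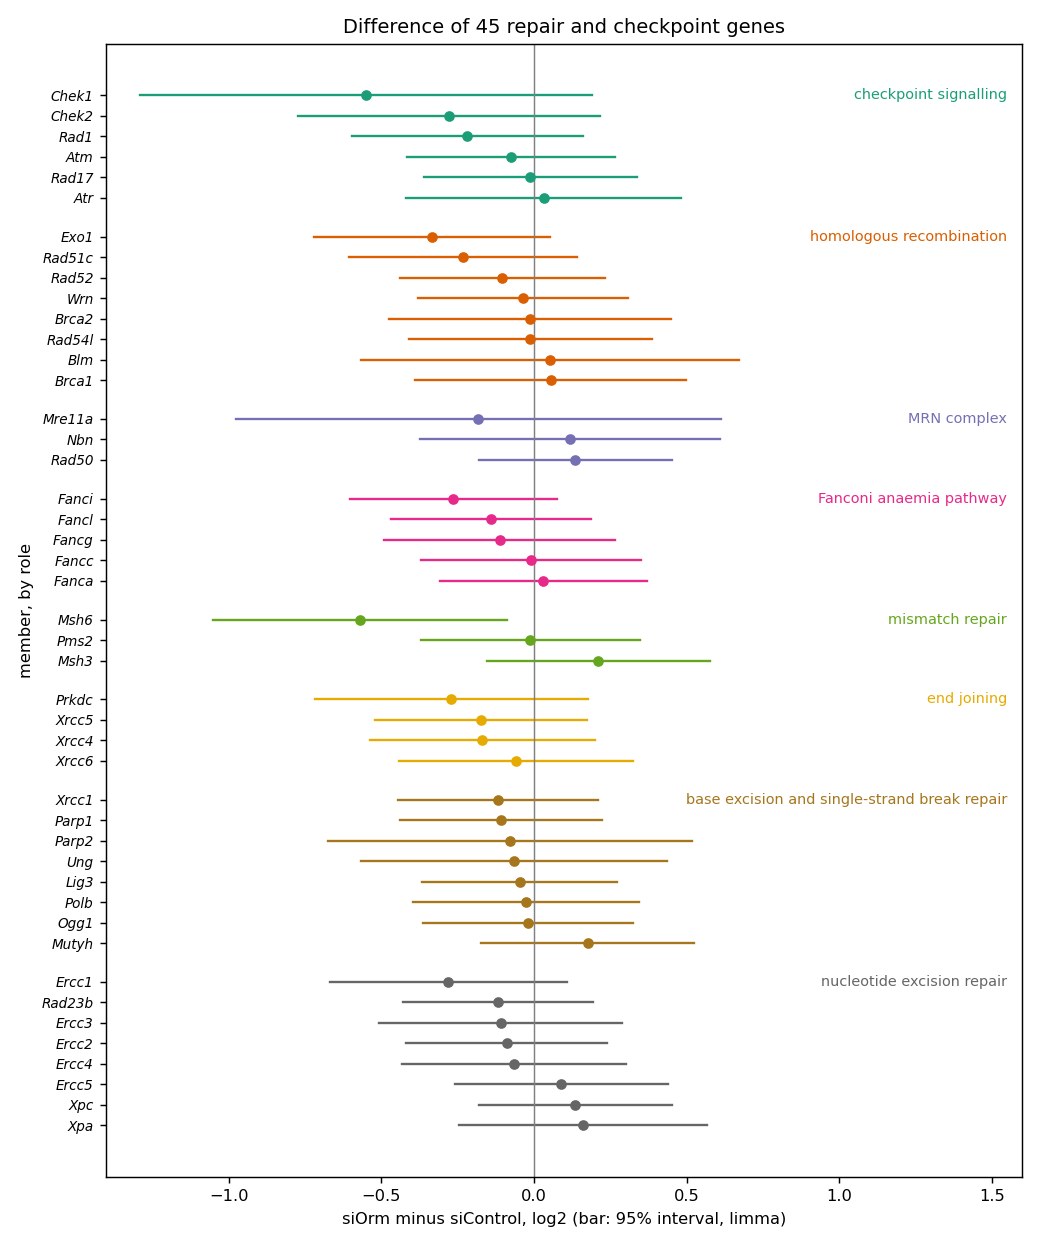
Difference between siOrm and siControl livers for each of the 45 measured members, grouped by role, with points for the difference of group means on the log2 scale and bars for the 95% interval of the limma fit (2 arrays a group). The interval leaves out 0 only for Msh6; it is widest for Mre11a and Chek1.

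The differences were small but lay more often on the lower side. In 34 of 45 members the difference was negative, against 47.8% of all genes. That count was 31 after quantile normalization, 32 with medians of probe sets and 30 or 31 when an array was left out. The share over all genes was not taken in those settings. The median over the members was -0.07, against 0.01 over all genes. The groups did not overlap, with siOrm below siControl, for 13 members (28.9%), against 15.3% of all genes, and with siOrm above siControl for 4 members (8.89%), against 17% of all genes. The 13 were Msh6, Exo1, Fanci, Chek1, Ercc1, Rad51c, Prkdc, Rad1, Xrcc5, Xrcc4, Fancl, Rad23b and Xrcc1, and the 4 were Msh3, Mutyh, Rad50 and Xpc. Counts taken without an array rise for members and background alike: without siOrm replicate 2, siControl replicate 1 and siControl replicate 2 there were 20, 24 and 26 members below, against 32.4%, 33.8% and 36.8% of all genes. The members above were then 7, 11 and 13, against 32.4%, 44.6% and 31.6%. No test of the list was made, and members that share S-phase transcription are not independent of each other.

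**Figure D2:**
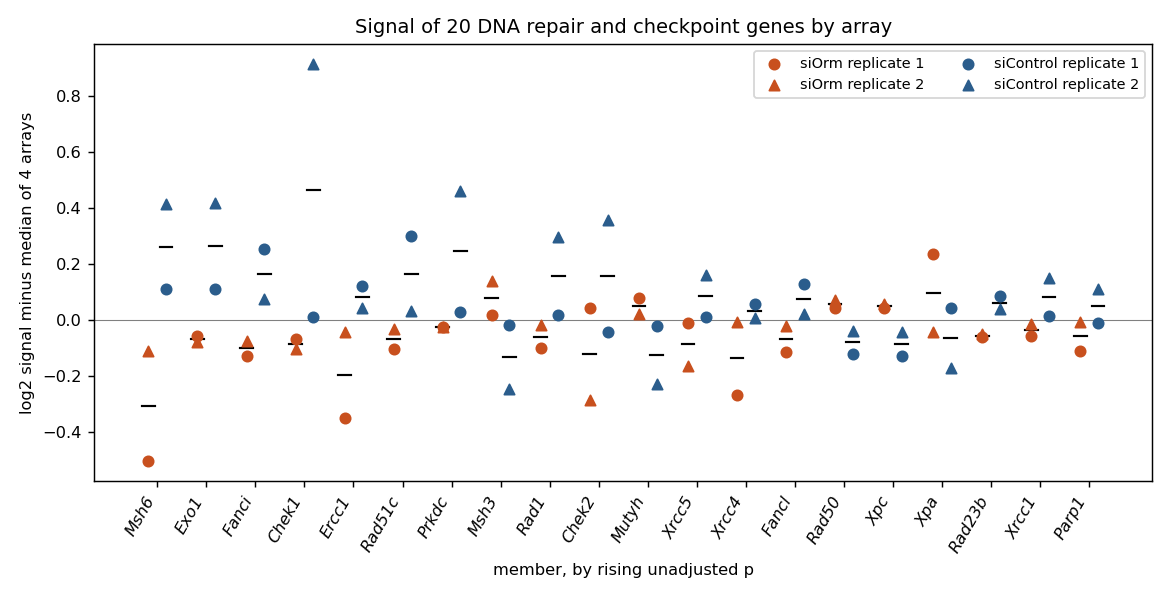
Signal of the 20 members with the smallest unadjusted p in each array, as log2 signal minus the median of the 4 arrays, with orange for siOrm, blue for siControl and black bars for group means. The siOrm arrays lie below both siControl arrays for genes such as Msh6, Exo1 and Fanci, and siControl replicate 2 stands far above the other arrays for Chek1 (0.91).

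Among the checkpoint genes, Chek1 had the largest difference. It encodes CHK1, the kinase that ATR activates at stalled forks. Chek1 stood at -0.07 and -0.10 in the siOrm arrays, against 0.01 and 0.91 in the siControl arrays, a difference of -0.55 (SE 0.30; limma, adjusted p = 0.994). Only siControl replicate 2 was high, and the other 3 arrays lay between -0.10 and 0.01. Without siControl replicate 2 the difference was -0.10. Without siControl replicate 1, which leaves a lone control array, it was -1.001. The spread between the siControl arrays does not enter that fit.

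The 3 probe sets of Chek1 disagreed. The one designed on a RefSeq transcript record stood at -0.29 and -0.10 in siOrm, against 0.10 and 1.12 in siControl, a difference of -0.81. A second differed by -1.20, with -0.79 and -0.07 in siOrm against 0.07 and 1.48 in siControl. The third, from the same expressed sequence tag as the second, went the other way at 0.37, with 0.87 and -0.14 in siOrm against -0.14 and 0.14 in siControl. The gene mean of -0.55 therefore averages opposite signs, and the median of the probe sets gave -0.79. After quantile normalization the gene mean was -0.32. Leaving out the second probe set, of a kind that can match several transcripts, gave -0.22.

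The remaining checkpoint genes lay closer to 0. Chek2, the kinase downstream of ATM, stood at 0.04 and -0.29 in siOrm, against -0.04 and 0.36 in siControl, so the groups overlapped (difference -0.28, SE 0.20; -0.08 without siControl replicate 2). Rad1, part of the clamp that is loaded at damaged DNA, stood at -0.10 and -0.02 in siOrm, against 0.02 and 0.30 in siControl (difference -0.22, SE 0.15). Here too siControl replicate 2 was the highest array, and without it the difference was -0.08. The damage-sensing kinases themselves differed by -0.08 for Atm (SE 0.14) and 0.03 for Atr (SE 0.18), and Rad17, which loads the clamp, by -0.01. Both groups overlapped for these 3 genes. Of the 6 checkpoint genes, 5 had negative differences, against 47.8% of all genes, and 2 were separated downwards, against 15.3%, with 0 past the adjusted test.

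In mismatch repair the 3 measured genes went different ways. MSH6 serves mainly in the recognition of single mispairs, and MSH3 in that of larger loops. Msh6 stood at -0.51 and -0.11 in siOrm, against 0.11 and 0.41 in siControl. Neither siOrm value reached a siControl value, and all 4 values were spread out. The difference was -0.57 (SE 0.19, 95% interval -1.05 to -0.09), or 1.48-fold lower, with an unadjusted p of 0.0279 and an adjusted p of 0.994 (limma). Msh6 was 268th of 10923 genes by p. Leaving out single arrays moved it between -0.77 and -0.37, the lower end without siOrm replicate 2 and the upper end without siOrm replicate 1. Msh3 lay on the opposite side, at 0.02 and 0.14 in siOrm, against -0.02 and -0.25 in siControl (difference 0.21, SE 0.15). That was the highest difference of all the members. Pms2, which encodes a nuclease subunit that nicks the new strand, differed by -0.01 (SE 0.14), and its groups overlapped.

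Promoter windows of the members with the smallest p on either side are shown, because these genes were separated between the groups and because E2F factors drive many S-phase genes through short GC-rich sites. They are RefSeq windows of GRCm38.p6, each running from 250 bases before the gene start to 50 bases after it, written 5′ to 3′ along the gene. Windows were used for 37 of the 45 measured members. Exo1 and Prkdc had none in the table used. Capitals mark every match, on either strand, to the 7-letter core of the E2F consensus. The core was searched in its forms TTCCCGC and, with other middle letters, TTCGCGC as well as TTGCCGC and finally TTGGCGC; matches may overlap.
Msh6 (chr17:87974800-87975099, plus strand): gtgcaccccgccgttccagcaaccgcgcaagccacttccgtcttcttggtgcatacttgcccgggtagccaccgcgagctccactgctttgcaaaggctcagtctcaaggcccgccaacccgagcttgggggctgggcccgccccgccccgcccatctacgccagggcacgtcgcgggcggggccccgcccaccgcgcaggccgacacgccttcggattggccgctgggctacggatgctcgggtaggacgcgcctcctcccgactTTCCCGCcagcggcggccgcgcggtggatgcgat
Fanci (chr7:79392088-79392387, plus strand): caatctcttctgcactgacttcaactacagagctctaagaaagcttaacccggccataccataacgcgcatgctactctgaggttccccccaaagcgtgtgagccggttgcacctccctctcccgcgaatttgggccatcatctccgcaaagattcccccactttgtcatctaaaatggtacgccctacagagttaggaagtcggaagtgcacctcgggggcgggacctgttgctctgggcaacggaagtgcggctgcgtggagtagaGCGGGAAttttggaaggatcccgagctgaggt
Chek1 (chr9:36726609-36726908, minus strand): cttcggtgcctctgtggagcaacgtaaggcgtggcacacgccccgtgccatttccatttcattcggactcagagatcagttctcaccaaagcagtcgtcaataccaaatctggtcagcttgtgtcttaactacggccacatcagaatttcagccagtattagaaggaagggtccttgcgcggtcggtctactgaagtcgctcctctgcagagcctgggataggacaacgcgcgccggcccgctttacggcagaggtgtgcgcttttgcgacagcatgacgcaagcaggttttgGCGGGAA
Ercc1 (chr7:19344821-19345120, plus strand): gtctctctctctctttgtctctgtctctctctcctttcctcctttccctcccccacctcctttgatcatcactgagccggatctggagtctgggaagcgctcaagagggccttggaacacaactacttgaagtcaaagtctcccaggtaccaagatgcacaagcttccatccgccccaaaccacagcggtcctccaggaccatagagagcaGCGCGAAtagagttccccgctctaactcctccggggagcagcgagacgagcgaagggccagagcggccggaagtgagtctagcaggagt
Msh3 (chr13:92354954-92355253, minus strand): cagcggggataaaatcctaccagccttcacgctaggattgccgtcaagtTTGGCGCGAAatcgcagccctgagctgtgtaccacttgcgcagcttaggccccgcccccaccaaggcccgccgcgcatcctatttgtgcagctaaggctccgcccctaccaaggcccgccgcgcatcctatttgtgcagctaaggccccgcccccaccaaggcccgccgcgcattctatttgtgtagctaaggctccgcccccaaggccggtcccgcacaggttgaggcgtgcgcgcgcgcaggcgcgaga
All 5 windows hold the 7-letter core, which was found in 10.9% of genes in the promoter table. That form was chosen after the windows had been seen. With a T before the core, only Msh6 and Msh3 of these genes match. In Msh6 it is TTCCCGC on the gene's own strand at bases 267 to 273 of the window, in Fanci the same letters on the opposite strand at bases 269 to 275, and in Chek1 on the opposite strand at bases 294 to 300, the end of the window. In Ercc1 it is TTCGCGC on the opposite strand at bases 212 to 218. Msh3 holds 2 overlapping matches, TTGGCGC on its own strand at bases 50 to 56 and TTCGCGC on the opposite strand at bases 53 to 59.

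The core was common among the members whichever way they lay. It was found in the windows of 18 of 37 measured members, against 10.9% of the 27025 genes in the promoter table. Windows on chromosome 18 were left out for the members, but no such filter was applied to the shares over all genes. By group order, it was found in 6 of the 11 members with a window that were separated downwards, 1 of 2 separated upwards, and 11 of 24 whose groups overlapped. With a T before the core, an 8-letter match, 7 of 37 members had it, against 2.60% of genes: Brca2, Chek2, Fancg, Msh3, Msh6, Rad51c and Xrcc6. The 7-letter form was added after the windows had been seen. Base composition was not matched, and a match is a run of letters, not a shown binding site.

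Homologous recombination held both separated and evenly balanced genes. Exo1, an exonuclease that resects break ends and also serves mismatch repair, stood at -0.06 and -0.08 in siOrm, against 0.11 and 0.42 in siControl (difference -0.33, SE 0.15; limma, adjusted p = 0.994). The siOrm arrays were close together and both below siControl. Its 2 probe sets differed in size, at -0.60 and -0.07. Rad51c, which acts in strand exchange, stood at -0.10 and -0.03 in siOrm, against 0.30 and 0.03 in siControl (difference -0.23, SE 0.15). For this gene siControl replicate 1 was the high array, and it was -0.10 without that array and -0.37 without siControl replicate 2.

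The breast cancer genes Brca1 and Brca2, which act in break repair by recombination, did not follow Exo1. Brca1 stood at 0.15 and -0.09 in siOrm, against -0.20 and 0.15 in siControl, a difference of 0.05 (SE 0.18). Brca2 stood at 0.00 and 0.00 in siOrm, against -0.22 and 0.24 in siControl, a difference of -0.01 (SE 0.19). In both genes the siControl arrays lay further apart than the siOrm arrays, with siControl replicate 2 the higher. The helicase genes Blm and Wrn differed by 0.05 and -0.04, the annealing factor gene Rad52 by -0.10 and the motor protein gene Rad54l by -0.01. Of the 8 recombination genes 2 were separated downwards and 0 upwards, against 15.3% and 17% of all genes.

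The MRN complex, which holds broken ends and activates ATM, gave no common direction. Rad50, its coiled-coil ATPase, stood at 0.04 and 0.07 in siOrm, against -0.12 and -0.04 in siControl (difference 0.14, SE 0.13), with siOrm above siControl. Mre11a, its nuclease, stood at 0.07 and -0.07 in siOrm, against -0.30 and 0.67 in siControl (difference -0.18, SE 0.32). That was the widest gap between siControl arrays of any member, and without siControl replicate 2 the difference was 0.30. Nbn, the third subunit, differed by 0.12 (SE 0.20), and there siControl replicate 2 was the lowest array at -0.37.

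Of the Fanconi anaemia genes 5 were measured, and 4 of them had negative differences, against 47.8% of all genes. Fanci, whose product is one of the pair that is ubiquitinated at crosslinks, stood at -0.13 and -0.07 in siOrm, against 0.25 and 0.07 in siControl (difference -0.26, SE 0.14; limma, adjusted p = 0.994). Fancl, the ubiquitin ligase of the pathway, stood at -0.11 and -0.02 in siOrm, against 0.13 and 0.02 in siControl (difference -0.14, SE 0.13). For both, siControl replicate 1 was the highest array and both siOrm arrays were below siControl. The core complex genes Fancg, Fancc and Fanca differed by -0.11, -0.01 and 0.03, each with overlapping groups.

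All 4 measured end joining genes had negative differences, against 47.8% of all genes, and 3 were separated, against 15.3%. Prkdc, which encodes the DNA-dependent protein kinase, stood at -0.03 and -0.03 in siOrm, against 0.03 and 0.46 in siControl (difference -0.27, SE 0.18). This rested on siControl replicate 2, and without it the difference was -0.05. Xrcc5, the larger subunit of Ku, which binds free DNA ends, stood at -0.01 and -0.16 in siOrm, against 0.01 and 0.16 in siControl (difference -0.17, SE 0.14). Xrcc4, a partner of the ligase that seals the break, stood at -0.27 and -0.01 in siOrm, against 0.05 and 0.01 in siControl (difference -0.17, SE 0.15). Its low array was siOrm replicate 1, and without it the difference was -0.04. Xrcc6, the other Ku subunit, differed by -0.06 and its groups overlapped. No end joining gene passed the test (limma, adjusted p of at least 0.994).

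Base excision and single-strand break repair genes lay near 0. The 8 measured genes differed by between -0.12 and 0.18, with 1 separated downwards and 1 upwards, against 15.3% and 17% of all genes. Of the 8, 7 had negative differences, against 47.8% of all genes. Mutyh, a glycosylase that removes adenine mispaired with oxidised guanine, stood at 0.08 and 0.02 in siOrm, against -0.02 and -0.23 in siControl (difference 0.18, SE 0.14). Xrcc1, the scaffold of single-strand break repair, stood at -0.06 and -0.01 in siOrm, against 0.01 and 0.15 in siControl (difference -0.12, SE 0.13). Parp1, a sensor of strand breaks, stood at -0.11 and -0.01 in siOrm, against -0.01 and 0.11 in siControl, and its groups overlapped narrowly (difference -0.11, SE 0.13). Its relative Parp2 stood at 0.00 and 0.00 in siOrm, against -0.26 and 0.42 in siControl (difference -0.08, SE 0.24). The glycosylase genes Ung and Ogg1, the ligase gene Lig3 and the polymerase gene Polb differed by -0.07, -0.02, -0.05 and -0.03.

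In nucleotide excision repair the signs were mixed. Ercc1, part of the nuclease that cuts beside a lesion, stood at -0.35 and -0.04 in siOrm, against 0.12 and 0.04 in siControl (difference -0.28, SE 0.16; limma, adjusted p = 0.994). The low array was siOrm replicate 1, and without it the difference was -0.13. Its nuclease partner Ercc4 differed by -0.07, with overlapping groups. Xpc, which recognises lesions, stood at 0.04 and 0.06 in siOrm, against -0.13 and -0.04 in siControl (difference 0.14, SE 0.13). Rad23b, the partner that stabilises XPC, lay on the other side, at -0.06 and -0.05 in siOrm, against 0.08 and 0.04 in siControl (difference -0.12, SE 0.13). Xpa, which checks the lesion, stood at 0.23 and -0.04 in siOrm, against 0.04 and -0.17 in siControl (difference 0.16, SE 0.16). Without siOrm replicate 1, its highest array, the difference was 0.02. The helicase genes Ercc2 and Ercc3 and the nuclease gene Ercc5 differed by -0.09, -0.11 and 0.09.

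For many members the siControl arrays lay further apart than the siOrm arrays. The gap between the siControl arrays was wider than that between the siOrm arrays for 34 of 45 members (75.6%), against 62.6% of all genes. For 13 members, among them Mre11a, Parp2, Blm, Atr and Brca2, the siControl arrays lay on either side of both siOrm arrays (28.9%, against 24.3% of all genes). In 7 of these siControl replicate 2 was the higher control and in 6 siControl replicate 1 was. For 1 member the siOrm arrays lay outside both siControl arrays (2.22%, against 9.67% of all genes). The median gap was 0.10 between siOrm arrays and 0.22 between siControl arrays over the members, and 0.13 and 0.20 over all genes.

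Several probe sets were available for 15 members and allowed a check within a gene. In 7 of the 15 all probe sets had differences of the same sign, and in 8 they had both signs. Xrcc4, Ogg1 and Rad23b had the closest pairs. Besides Chek1, the genes with both signs were Brca1, Rad54l, Fancc, Lig3, Wrn, Polb and Fanca, with gene means between -0.05 and 0.05.

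**Figure D3:**
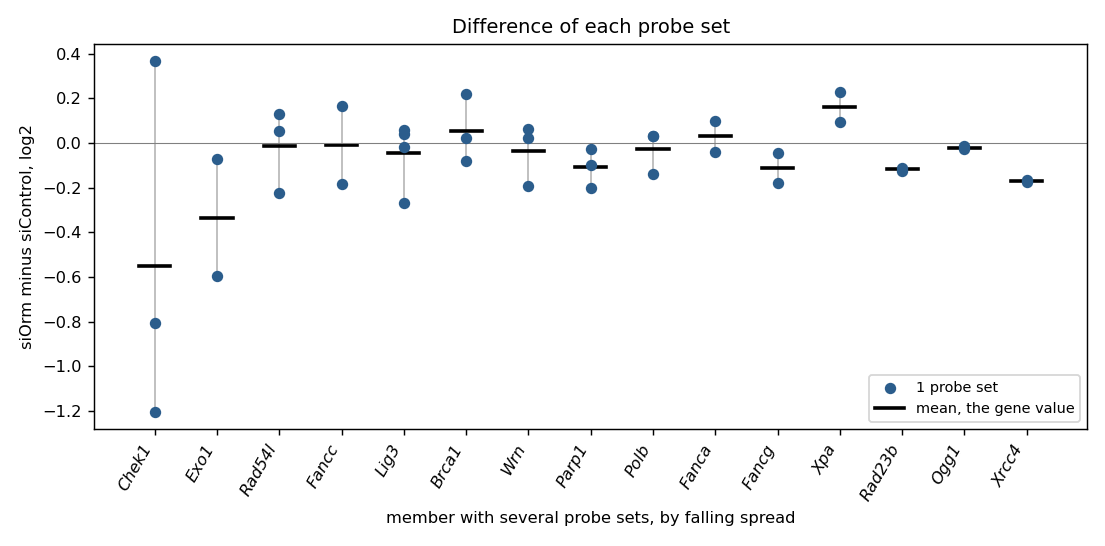
Difference between siOrm and siControl of every probe set (blue points) for the 15 members that had more than 1, on the log2 scale, with black bars for the mean used as the gene value. Chek1 spans from -1.20 to 0.37, while the pairs of Rad23b, Ogg1 and Xrcc4 nearly coincide.

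Members known for S-phase-linked transcription were set beside the rest. The list was Brca1, Brca2, Bard1, Rad54l, Blm, Exo1, Msh6, Fanca, Fancd2, Fanci, Chek1 and Ung, of which 10 were measured. Their median difference was -0.04, against -0.08 for the other 35 members, and 4 of the 10 were separated downwards against 9 of the 35, beside 15.3% of all genes. The 10 split into Msh6, Chek1, Exo1 and Fanci between -0.57 and -0.26, and the other 6 between -0.07 and 0.05. Their medians were 0.01 and -0.09 in the siOrm arrays, against 0.04 and 0.20 in the siControl arrays. Leaving out probe sets of the kinds that can match several transcripts removed Brca2, Fanca and Ung, whose differences were near 0. The median of the genes left was -0.22, which is therefore not a shift of the same 10 genes. That median is the value of Chek1 in this setting, against -0.55 with all its probe sets. Without siControl replicate 1 the median of all 10 was -0.21. After quantile normalization it was -0.087, against -0.057 for the other members. The order of the lists therefore depended on these choices, and the difference between them was not tested.

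The proliferation markers differed far more than the repair genes did. They are genes of the replicative helicase, mitotic cyclins, spindle kinases and similar genes, of which 18 were measured. All 18 had negative differences, and 17 were separated downwards, against 15.3% of all genes. An unadjusted p under 0.05 was found for 15, against 4.76%, with 0 past the adjusted test (limma). Their median difference was -0.87, against -0.07 for the 45 members. Their medians were -0.39 and -0.21 in the siOrm arrays, against 0.19 and 0.92 in the siControl arrays. The members' own medians were -0.02 and -0.02 in the siOrm arrays, against 0.03 and 0.03 in the siControl arrays. Without siControl replicate 2 the marker median was -0.50 and the member median -0.08.

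**Figure D4:**
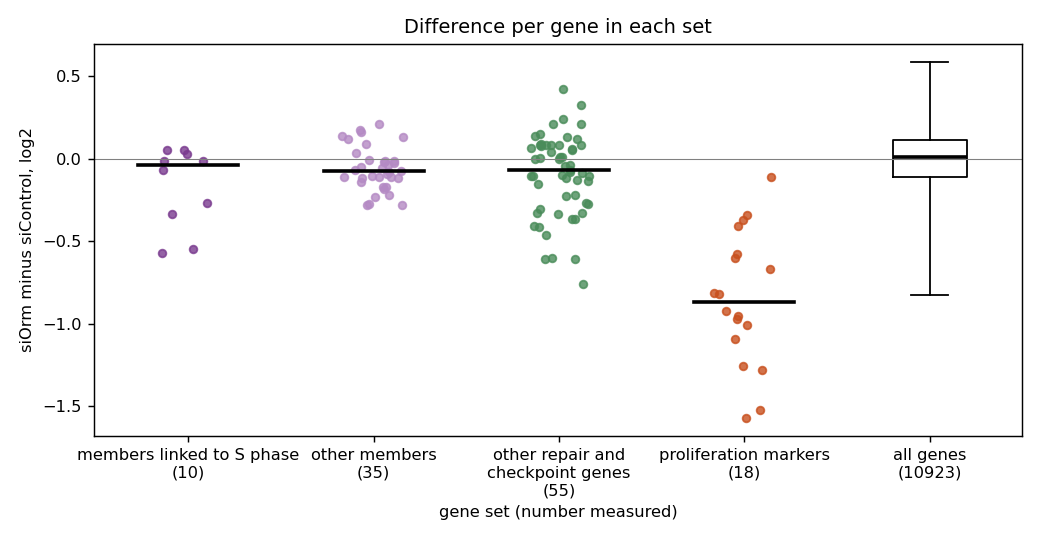
Difference between siOrm and siControl, on the log2 scale, in 4 gene sets and in all 10923 genes. Points are the genes of the 4 sets, with black bars for medians. The box for all genes runs from the lower to the upper quartile, and its whiskers leave out the outermost percentile at each end. The members lie near 0, with Msh6 and Chek1 lowest, and the proliferation markers lie lower around a median of -0.87.

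Other genes of repair and checkpoint pathways had a median as small as that of the members. Of 55 measured genes outside the 45 members, 0 passed the adjusted test, while 3 were lower and 1 was higher at an unadjusted p under 0.05 (limma), against 2.58% lower and 2.18% higher of all genes. The median difference was -0.07, with 12 separated downwards and 7 upwards, against 15.3% and 17% of all genes. The 3 lower ones have tasks in replication or base excision. Rpa2, a subunit of the single-strand binding protein, stood at -0.33 and -0.14 in siOrm, against 0.10 and 0.64 in siControl (difference -0.61, SE 0.21). Lig1, the ligase that joins Okazaki fragments, stood at -0.43 and -0.10 in siOrm, against 0.10 and 0.89 in siControl (difference -0.76, SE 0.28). Apex1, which cuts abasic sites, stood at -0.23 and -0.09 in siOrm, against 0.40 and 0.09 in siControl (difference -0.41, SE 0.16). Tdp2, which frees ends blocked by topoisomerase, stood at 0.15 and 0.13 in siOrm, against -0.24 and -0.13 in siControl (difference 0.32, SE 0.13). All 4 had separated groups and an adjusted p of 0.994 (limma). Without siControl replicate 1, which leaves a lone control array, Lig1 differed by -1.16, and without siControl replicate 2 by -0.36.

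Macrophage, endothelial and stellate cell markers stood highest in siControl replicate 2. The 13 measured macrophage markers of 15 had medians of -0.01 and 0.01 in the siOrm arrays, against -0.22 and 0.57 in the siControl arrays. Of the 45 members, 18 were highest in siControl replicate 2, among them Chek1, Exo1, Prkdc and Mre11a, and 19 were highest in siControl replicate 1; over all 10923 genes the counts were 3069 and 2966. Of the 18 proliferation markers, 17 were highest in siControl replicate 2. The 9 endothelial markers of 10 stood at -0.02 and -0.01 in siOrm, against -0.21 and 0.24 in siControl, and the 9 stellate cell markers of 10 at 0.02 and 0.15, against -0.24 and 0.44. Neutrophil markers (10 of 12) had medians of -0.05 and -0.01 in siOrm, against 0.10 and -0.01 in siControl. Of these 10 markers, 7 had negative and 3 had positive differences, against 47.8% negative over all genes. The medians leave out of sight S100a8 and S100a9, which encode calprotectin and had the largest shifts of the list. S100a8 stood at -0.60 and -0.16 in siOrm, against 0.16 and 2.75 in siControl (difference -1.83, SE 0.79). S100a9 stood at -0.10 and -0.14 in siOrm, against 0.10 and 1.95 in siControl (difference -1.15, SE 0.56). Both were far higher in siControl replicate 2 than in any other array. The list as a whole did not follow: 3 of the 10 were highest and 3 lowest in that array, and 5 were highest in siControl replicate 1. For lymphocyte markers (9 of 14) the medians were 0.16 and -0.03 in siOrm, against 0.11 and -0.19 in siControl. The 5 cholangiocyte markers of 8 stood at 0.01 and 0.06 in siOrm, against -0.08 and -0.01 in siControl. Hepatocyte markers (13 of 14) stood at 0.05 and 0.02 in siOrm, against -0.02 and -0.06 in siControl. The part of these cells in the members' values was not tested, and no marker's level can be seen in centred values.

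**Figure D5:**
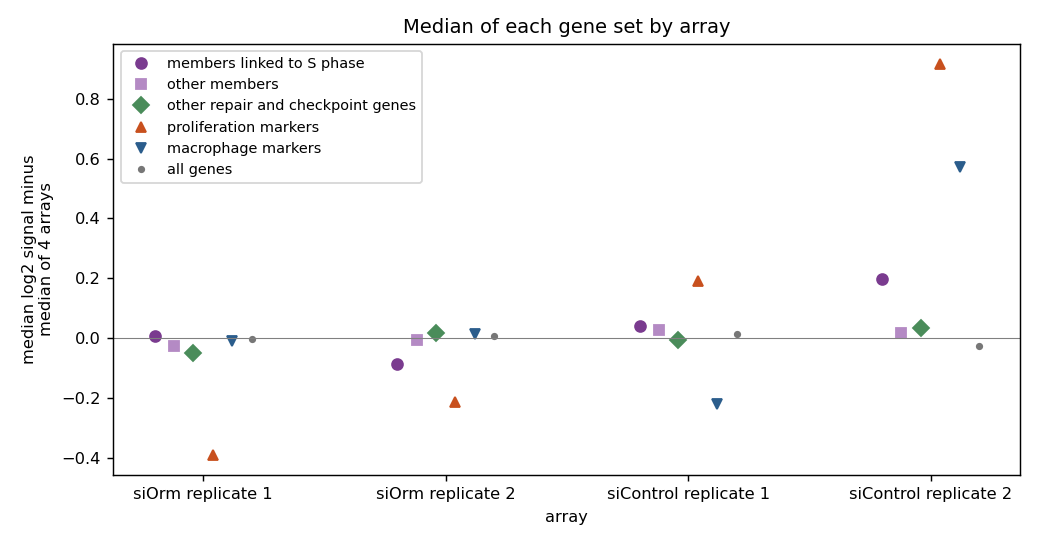
Median of each gene set in each array, as log2 signal minus the median of the 4 arrays, with siOrm arrays on the left and siControl arrays on the right. Proliferation and macrophage markers stand highest in siControl replicate 2 (0.92 and 0.57), while the members outside the S-phase list stay near 0 in every array.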

How the data were processed

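Liver RNA was hybridised to 4 single-colour arrays, 2 per group. The series text names an Affymetrix mouse array, while the labels' protocols name another maker's labelling and RNA taken from culture, so the bench steps are not settled. The authors deposited a table of 18852 probe sets in log2 signal, centred on the 4-array median per probe set (largest row median 4.8e-07). Neither the software, the normalization between arrays nor the logarithm's base is given in the sources used here. Base 2 was assumed; with natural logarithms differences would be 1.44 times larger. Symbols came from the platform's annotation table: 17209 probe sets had 1 symbol, 564 had several, 1044 were not listed and 35 were controls. The number of arrays sets the limit of precision.

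Gene values were means of probe sets. Two-sided tests used lmFit and eBayes of limma 3.58.1 under R 4.3.3 (constant variance prior with 3.60 degrees of freedom beside 2 residual ones), with Benjamini-Hochberg adjustment over 10923 genes and a threshold of 0.05. The fit was checked on simulated independent genes with equal spread in both groups and with shifts larger than any member's. That check does not cover smaller shifts or unequal spread. Values per array are given for the 20 members with the smallest p, which include 1 or more of each role. Mre11a, Brca1, Brca2 and Parp2 were added after their values were seen. So were Atm and Atr, for which only the difference and its SE are given. Of other lists, up to 4 genes are named, those with the smallest p, except in the neutrophil list. There S100a8 and S100a9 are named for the size of their shifts, and Cxcr2, which lies between them by p, is not. Members and lists were chosen with earlier results of these data known. Alternatives were a replicate block, quantile normalization, a variance prior with a trend, medians of probe sets, fewer probe sets, and leaving out each array.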

Additional observations from a re-analysis of the deposited data

How the results depend on the processing

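With 2 arrays a group, leaving one out sets a lone array, assumed to vary like the rest, against a pair. Over all genes the calls numbered 0 as reported, 11 with a variance prior with a trend, and from 0 to 229 when an array was left out, the 229 without siControl replicate 1. Calls among the members ran from 0 to 1 when an array was left out, the 1 being Chek1 without siControl replicate 1, and were 0 in every other setting tried. When an array was left out, members separated downwards ran from 18 without siOrm replicate 1 to 26 without siControl replicate 2. The shares over all genes were then 23.5% and 36.8%. Members separated upwards ran from 5 to 13 in those settings, against 29.2% and 31.6% of all genes. The members' median difference of -0.07 was -0.057 after quantile normalization, -0.072 with medians of probe sets, -0.078 without probe sets named _s_at, _x_at or _a_at (39 of the 45 members left), and from -0.099 to -0.060 when an array was left out. The S-phase-linked median of -0.04 was -0.22 without those probe sets, where Brca2, Fanca and Ung dropped out. Chek1 itself moved from -0.55 to -0.22 there. After quantile normalization it was -0.087. Both values lie below the other members' median in the same setting. The S-phase-linked median ran from -0.21 to -0.021 when an array was left out. The median of the other members was -0.057 after quantile normalization and ran from -0.097 to -0.037 when an array was left out. No cause of these shifts was tested beyond the fewer arrays or probe sets.

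The sign turned in 1 or more settings for 22 of the 45 members, each with a reported difference within 0.182 of 0. After quantile normalization Brca2 stood at 0.033, Parp2 at 0.0092 and Rad17 at 0.015. With medians of probe sets Polb stood at 0.030 and Rad54l at 0.045, and without the probe sets named above Wrn stood at 0.021. When an array was left out, Mre11a ran from -0.67 to 0.30, Brca1 from -0.12 to 0.23, Brca2 from -0.24 to 0.22, Atm from -0.16 to 0.013, Atr from -0.18 to 0.24, Parp2 from -0.42 to 0.26, Blm from -0.28 to 0.39, Ung from -0.33 to 0.20, Nbn from -0.14 to 0.37 and Ercc3 from -0.27 to 0.051. Likewise Ercc4 ran from -0.17 to 0.039, Ercc5 from -0.011 to 0.19, Xrcc6 from -0.21 to 0.092, Lig3 from -0.096 to 0.0026, Wrn from -0.11 to 0.040 and Fanca from -0.062 to 0.12. Polb ran from -0.14 to 0.091, Ogg1 from -0.093 to 0.053, Pms2 from -0.13 to 0.11, Rad17 from -0.11 to 0.092, Rad54l from -0.13 to 0.11 and Fancc from -0.13 to 0.11. The 20 members named by the smallest p kept their sign in every setting that measured them, but 17 of them had separated groups, whose sign cannot turn when an array is left out. The size held less well: leaving out an array took 17 of the 20 differences to less than the reported value divided by 1.5. Replicate numbers in the titles give no sign of a shared animal or day, and same-numbered arrays deviated with a correlation of 0.132 over genes. With the number as a replicate block 0 genes and 0 members were called, as without it, and the smallest adjusted p of a member was 0.622 (limma). Signal over background cannot be seen in centred values, so no limit from it can be given. Identical values did occur. Prkdc stood at -0.0272479 in both siOrm arrays. The third Chek1 probe set stood at -0.139724 in both siOrm replicate 2 and siControl replicate 1. Whether such ties mark a floor of the signal was not tested.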
